A study of Mus musculus with 8 samples.

Results

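Cytosolic ribosomal protein genes encode the proteins of the small and large subunits of the ribosome that translates messenger RNA in the cytoplasm. They were taken here as the genes whose symbol begins with Rps, Rpl or Rplp followed by a number, together with Rpsa, on probe sets that carry a single gene symbol. The rule found 61 of the 19938 genes on the array, 23 of the small and 38 of the large subunit, read by 217 probe sets. A further 17 symbols of the family, such as Rpl3, Rpl11 and Rps27, occur only on probe sets with several symbols and were not analysed here.

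The study used Affymetrix whole-transcript arrays to measure the RNA of naive mouse CD4 T cells activated under conditions that favour follicular helper T (Tfh) cells. Naive CD4 cells were sorted from wild type mice (WT, 4 arrays) and from mice labelled T cell-specific conditional Bcl6-/- (KO, 4 arrays). Cells of both groups were activated through CD3 and CD28 by antibodies for 24 hours, in the presence of antibodies against IL-4, IFNg and TGFb and of the cytokines IL6 and IL21, and 100 ng of total RNA per array was labelled. Bcl6 is a transcriptional repressor needed for Tfh cells, and the comparison asks which transcripts differ when it is missing. The labels name neither the Cre line, the deleted exons, the strain nor the age of the mice, and do not say that each array came from its own mouse, so p-values here speak only of array-to-array spread, which may be technical. The Bcl6 signal went against the labels, with larger values in the KO-labelled group, and over all tested genes KO replicate 1 stood farther from its group than any other array. Within the ribosomal protein genes it did not: their median distance from the group mean was 0.05 for WT replicate 3 and 0.0425 for KO replicate 1. Arrays are therefore called by their label, and results that change without KO replicate 1 are also given without it.

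The ribosome joins ribosomal RNAs with many small proteins, and a dividing cell spends much of its transcription on these parts. The messenger RNAs of ribosomal proteins begin with a C followed by a run of pyrimidines, the terminal oligopyrimidine (TOP) tract, through which the kinase mTORC1 and the binding protein LARP1 set how well they are translated. Resting T cells hold few ribosomes, and stimulation through the T cell receptor and CD28 starts new ribosome production before the first division. Free ribosomal proteins have roles of their own: RPL5 and RPL11, bound to 5S ribosomal RNA, inhibit MDM2 and so stabilise p53.

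The pyrimidine runs near the start sites of the family are shown because they are the sequence feature the family is known for. RefSeq windows from 250 bases before to 50 bases after the start (build GRCm38.p6) were matched by symbol for 49 of the 61 genes, which gave 58 windows. Rpl21, Rpl23a, Rpl29, Rpl30, Rpl36, Rpl7, Rpl8, Rplp1, Rps14, Rps20, Rps29 and Rps4l had no entry. For 5 genes with low values in the KO-labelled arrays, 3 with high values and the Rpl10-like gene Rpl10l, the 30 bases around the longest pyrimidine run within 50 bases of the start are printed 5′ to 3′ on the gene's strand, with that run in capitals.
Rpl14 (chr9:120571501-120571530, plus strand): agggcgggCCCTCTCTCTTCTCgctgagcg
Rpl13 (chr8:123102324-123102353, plus strand): cgtgacgtcaCTTCCCTTTCgcctgatttt
Rps21 (chr2:180257399-180257428, plus strand): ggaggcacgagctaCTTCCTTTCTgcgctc
Rplp2 (chr7:141447636-141447665, plus strand): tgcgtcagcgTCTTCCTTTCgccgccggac
Rps7 (chr12:28635910-28635939, minus strand): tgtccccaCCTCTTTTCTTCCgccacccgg
Rps6 (chr4:86857349-86857378, minus strand): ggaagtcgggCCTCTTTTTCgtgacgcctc
Rpl9 (chr5:65391383-65391412, minus strand): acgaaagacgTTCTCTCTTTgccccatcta
Rpl38 (chr11:114668568-114668597, plus strand): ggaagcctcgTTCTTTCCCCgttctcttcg
Rpl10l (chr12:66284394-66284423, minus strand): acagaaatttggCCTCCattttgcggctgg
Runs of 10 or more pyrimidines thus occur both in genes with values below 0 and in genes with values above 0 for the difference between the groups.

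Over all 58 windows, 41 (70.7%) held a run of at least 8 pyrimidines within 50 bases of the start, against 35.7% of the 32851 RefSeq windows. A C followed by at least 4 more pyrimidines stood exactly at the annotated start in 10 windows (17.2%), against 2.51% of all windows. The letters CCGGAAG, a core of ETS-family sites, were found on either strand in 20 windows (34.5%, against 8.86%), and GGGCGG, the GC box, in 33 (56.9%, against 35.7%). TATAAA occurred in 6 windows (10.3%, against 13.6%) and TTCNNNGAA, the form bound by STAT factors, in 2 (3.45%, against 8.30%). The 38 genes with a run of at least 8 had a median log2 difference, KO minus WT, of -0.033, with 24 below 0. The 11 genes with a window but no such run had -0.065, with 8 below 0. The 38 include Rpl39l (-0.08) and Rpl3l (0.075), whose signals were too low for the test described below. These counts describe letters in a fixed window and show no binding.

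In the KO-labelled arrays no ribosomal protein gene passed the test, and the differences were small: most lay slightly below 0, between -0.315 for Rpl14 and 0.12 for Rpl32l on the log2 scale. Of the 61 genes, 59 passed the filter on low values (a signal above each array's 40th percentile, required on 4 or more arrays) and were tested with limma beside all 11926 genes that passed it, with Benjamini-Hochberg adjustment over all of them. At an adjusted p under 0.05, 0 of 59 were called, against a background of 1.32% of all tested genes. At an unadjusted p under 0.05, 14 genes (23.7%) were lower in the KO-labelled arrays, where 10.5% of all tested genes were, and Rpl32l alone was higher, where 6.15% were. In 11 genes (18.6%; background 7.66%) all 4 KO-labelled values lay below all 4 WT-labelled values, and in 0 genes (background 3.10%) all lay above. The difference was below 0 in 40 of 59 genes (67.8%), with a median of -0.045, against 57.9% and -0.0175 over all tested genes. The median size of a difference, its sign left aside, was 0.065 in the family and 0.065 over all tested genes. The cells were measured in bulk, so fewer cells of a type and less RNA per cell cannot be told apart.

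The intervals of the fit bound the difference in signal. How fully the brightest probe sets respond to a change in RNA was not tested, so the intervals do not bound the change in RNA. For 46 of 59 genes the 95% interval of the difference lay within 1.2-fold in either direction. The other 13, Rpl10l, Rpl12, Rpl13, Rpl14, Rpl26, Rpl27a, Rpl7, Rplp2, Rps19, Rps21, Rps29, Rps4l and Rps7, had intervals that reached beyond it. In 14 genes the interval lay wholly below 0 and in 1, Rpl32l, wholly above. The number of arrays, 4 in each group, limits this precision.

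**Figure D1:**
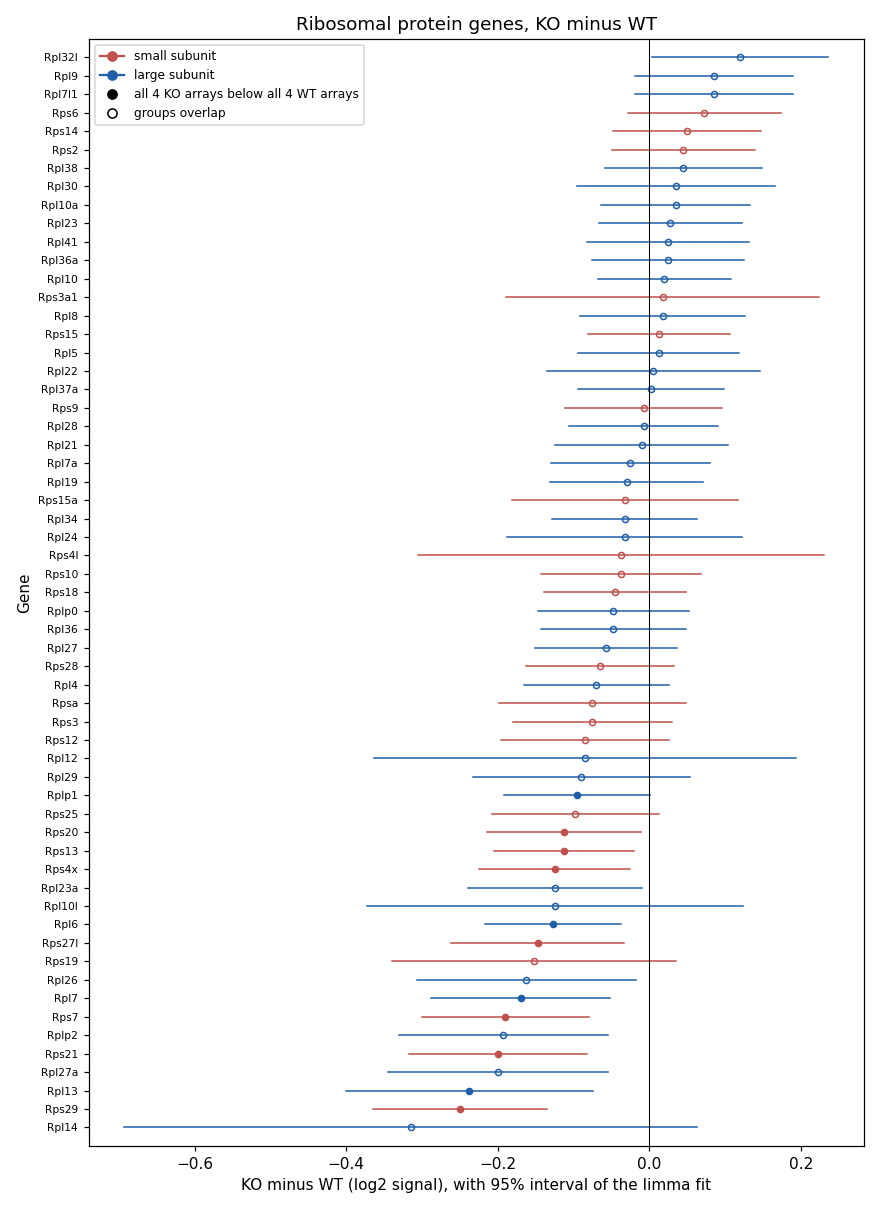
Log2 difference, KO minus WT, of the 59 tested ribosomal protein genes with the 95% interval of the limma fit (n = 4 arrays in each group); red, small subunit; blue, large subunit; filled points, all 4 KO-labelled arrays below all 4 WT-labelled arrays. Most points lie left of 0, from -0.315 for Rpl14 to 0.12 for Rpl32l, and all 11 filled points are on the left.

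Among small subunit genes, 18 of 23 tested lay below 0, with a median difference of -0.075 and a range from -0.25 to 0.07. The groups did not overlap in 7 of them (30.4%, against 7.66% of all tested genes), all lower in the KO-labelled arrays: Rps29, Rps21, Rps7, Rps27l, Rps4x, Rps13 and Rps20. The same 7 genes are those of the subunit with an unadjusted p under 0.05.

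Rps29, a zinc-binding protein of the small subunit's head, had the smallest p of the family. Its log2 signal was 12.87, 12.86, 12.85 and 12.73 in the WT-labelled arrays and 12.62, 12.60, 12.49 and 12.60 in the KO-labelled arrays. WT replicate 4 and KO replicate 3 are the lowest of their groups, and the groups are separated by more than 0.1. The difference was -0.25 ± 0.0515 (SE, n = 4), with a limma adjusted p of 0.0507 and an exact two-sided permutation p of 0.0286, which is the minimum for 4 against 4 arrays. The adjusted p ran from 0.0197 to 0.178 in the fits that left out 1 array, and it was 0.0197 without KO replicate 1 and 0.0442 without WT replicate 4. Its 4 probe sets gave differences between -0.25 and -0.235, and all 4 separated the groups.

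Rps21, another small subunit protein, read 11.97, 11.88, 11.85 and 12.01 in the WT-labelled arrays and 11.80, 11.74, 11.69 and 11.68 in the KO-labelled arrays. The highest KO-labelled value lies just under the lowest WT-labelled one. The difference was -0.20 ± 0.0528 (SE, n = 4; limma adjusted p = 0.097; 0.032 without KO replicate 1 and up to 0.242 with another array left out). Its other probe set, at a mean level of 9.79, gave -0.33.

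Rps7, whose protein binds MDM2 and is among those mutated in Diamond-Blackfan anaemia, an inherited failure of red cell production, read 13.51, 13.43, 13.34 and 13.42 against 13.20, 13.22, 13.23 and 13.29. All KO-labelled arrays were below all WT-labelled arrays, with the smaller spread in the KO-labelled group. The difference was -0.19 ± 0.0493 (SE, n = 4; limma adjusted p = 0.0931; 0.0605 to 0.267 with 1 array left out).

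The other separated genes of the subunit, Rps27l apart, had smaller differences. Rps4x, the X-linked form of RPS4, read 13.34, 13.26, 13.23 and 13.24 against 13.11, 13.14, 13.14 and 13.18, a difference of -0.125. Rps13 read 12.50, 12.43, 12.44 and 12.41 against 12.32, 12.33, 12.33 and 12.35, a difference of -0.11. Rps20 read 13.91, 13.88, 13.86 and 13.80 against 13.75, 13.79, 13.69 and 13.77, also -0.11. In each of the 3 the gap between the groups was narrower than 0.07 on the log2 scale, and the limma adjusted p lay between 0.197 and 0.251.

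At the other end of the subunit stood Rps6, the ribosomal substrate of the S6 kinases downstream of mTORC1. It read 14.11, 14.08, 14.00 and 14.09 in the WT-labelled arrays and 14.09, 14.15, 14.15 and 14.18 in the KO-labelled arrays. The groups overlap through KO replicate 1, and the other 3 KO-labelled arrays are above every WT-labelled one. The difference was 0.07 ± 0.0452 (SE, n = 4; limma adjusted p = 0.485). The 8 probe sets for Rps6 gave 0.07 to 0.10, each above 0. Rps14, known from the loss of a copy in a form of myelodysplasia, read 12.90, 12.92, 12.93 and 12.88 against 13.03, 12.94, 12.92 and 12.94, a difference of 0.05 (limma adjusted p = 0.646). Rps2, which lines the entry of the messenger RNA channel, read 14.01, 14.01, 13.93 and 13.98 against 14.01, 14.03, 14.01 and 14.06, a difference of 0.045 (limma adjusted p = 0.672). Both overlap between the groups. The probe sets of Rps2 disagree: another gave 0.06, and the last read 14.04, 13.95, 13.97 and 13.95 against 13.92, 13.90, 13.92 and 13.90, a difference of -0.0675 without overlap (limma adjusted p = 0.472 among all probe sets).

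**Figure D2:**
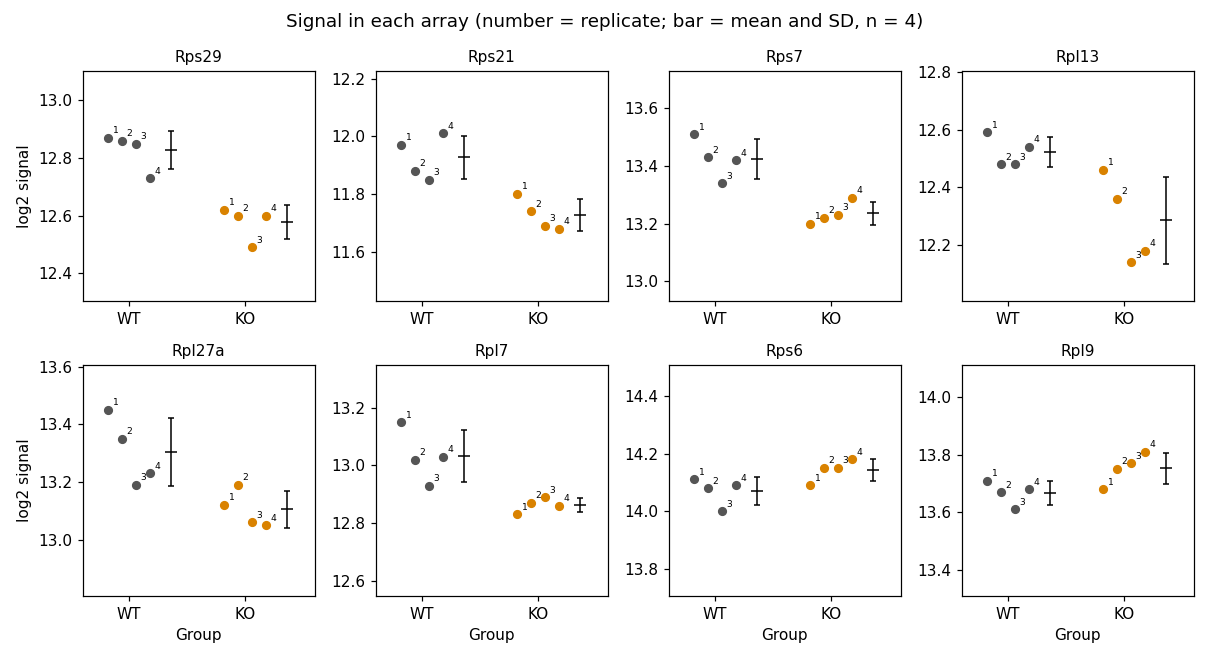
Log2 signal on each array (vertical axis, each panel spans 0.8 log2 units) of 6 ribosomal protein genes with low and 2 with high values in the KO-labelled group; grey, WT; orange, KO; numbers, replicates; bars, mean and SD (n = 4). On the probe sets shown, Rps29, Rps21, Rps7, Rpl13 and Rpl7 do not overlap between the groups, Rpl27a shares a single value, and Rps6 and Rpl9 overlap.

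By place in the small subunit, the 6 tested genes of the messenger RNA channel were Rps14, Rps15, Rps2, Rps28, Rps3 and Rpsa. Of these, 3 lay below 0, their median was -0.026 and none was separated on the probe set that stands for the gene. Other probe sets did separate the groups, all lower in the KO-labelled arrays: 3 of 5 for Rpsa, which had differences down to -0.21, 2 of 7 for Rps28 and 1 of 3 for Rps2. A list of 14 genes mutated in Diamond-Blackfan anaemia, from both subunits, had 7 tested, 6 below 0 and a median of -0.15. Rps29 and Rps7 were separated. Over all tested genes 57.9% lay below 0 and 7.66% were separated lower. The median depends on which genes were listed: Rpl27 (-0.0575) and Rps15a (-0.0325) were tested but are not on the list. On the list, Rps19, the gene most often mutated in that disease, read 12.60, 12.49, 12.59 and 12.84 against 12.64, 12.50, 12.39 and 12.38. Its difference of -0.15 ± 0.0841 (SE, n = 4; limma adjusted p = 0.417) rests on a high WT replicate 4 and low KO replicates 3 and 4, and the groups overlap. Both lists were chosen with earlier results of these arrays known, and neither count is a test.

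Among large subunit genes, 22 of 36 tested lay below 0, with a median difference of -0.031 and a range from -0.315 to 0.12. The groups were separated in 4 (11.1%, against 7.66% of all tested genes): Rpl13, Rpl7, Rpl6 and Rplp1, each lower in the KO-labelled arrays. At an unadjusted p under 0.05 there were 7 lower (19.4%) and 1 higher, against 10.5% and 6.15%. The large subunit thus lay nearer to all tested genes than the small subunit did, but whether the subunits differ was not tested.

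Rpl13 read 12.59, 12.48, 12.48 and 12.54 in the WT-labelled arrays and 12.46, 12.36, 12.14 and 12.18 in the KO-labelled arrays. KO replicates 3 and 4 are far below the other 6 arrays, while KO replicate 1 lies only just under the lowest WT-labelled value. The difference was -0.24 ± 0.0732 (SE, n = 4; limma adjusted p = 0.145; 0.0219 to 0.323 with 1 array left out, 0.0219 without KO replicate 1). All 9 probe sets of Rpl13 lay between -0.27 and -0.215, and 8 of them separated the groups.

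Rpl27a had low values in the same KO-labelled arrays. It read 13.45, 13.35, 13.19 and 13.23 against 13.12, 13.19, 13.06 and 13.05, so that WT replicate 3 and KO replicate 2 share a value. The difference was -0.20 ± 0.065 (SE, n = 4; limma adjusted p = 0.16), and its 9 probe sets ran from -0.37 to -0.105, the widest range of any gene of the family. On 7 of these 9 probe sets the groups were separated. Rpl7, which contacts ribosomal RNA, read 13.15, 13.02, 12.93 and 13.03 against 12.83, 12.87, 12.89 and 12.86, without overlap. Its difference was -0.17 ± 0.053 (SE, n = 4; limma adjusted p = 0.146), and each of its 4 probe sets separated the groups. Rpl6 was separated with little spread inside each group, 13.70, 13.66, 13.64 and 13.66 against 13.54, 13.53, 13.56 and 13.52, a difference of -0.13 ± 0.0401 (SE, n = 4; limma adjusted p = 0.149).

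The lowest difference of the family belonged to Rpl14 and was the least certain. It read 10.48, 10.29, 10.20 and 10.84 in the WT-labelled arrays and 9.78, 10.17, 10.06 and 10.54 in the KO-labelled arrays. Within each group the values spread over more than 0.6, and KO replicate 4 lies above 3 WT-labelled arrays. The difference was -0.315 ± 0.17 (SE, n = 4; limma adjusted p = 0.403), with an interval from -0.69 to 0.06.

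Among genes placed in the large subunit by symbol, the highest differences were those of Rpl32l, Rpl9 and Rpl7l1. The symbols of Rpl32l and Rpl7l1 mark them as like another gene. Without all genes with such symbols, 21 of 33 large subunit genes lay below 0, with a median of -0.0325. Rpl32l read 11.71, 11.55, 11.50 and 11.57 against 11.69, 11.70, 11.71 and 11.71. The KO-labelled values nearly coincide, and WT replicate 1 equals the highest of them. The difference was 0.12 ± 0.0521 (SE, n = 4; limma adjusted p = 0.286). Rpl9 read 13.71, 13.67, 13.61 and 13.68 against 13.68, 13.75, 13.77 and 13.81, overlapping through KO replicate 1. The difference was 0.085 ± 0.0468 (SE, n = 4; limma adjusted p = 0.416), and each of the 8 probe sets for Rpl9 lay above 0.

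The stalk of the large subunit, which recruits the elongation factors, is built from RPLP0 and dimers of RPLP1 and RPLP2 on a base that includes RPL12. All 4 of these genes lay below 0, with a median of -0.09, where 57.9% of all tested genes lay below 0. This count is not a test. Rplp2 read 8.60, 8.64, 8.51 and 8.50 against 8.52, 8.29, 8.32 and 8.35, a difference of -0.19 ± 0.0616 (SE, n = 4; limma adjusted p = 0.155), and only KO replicate 1 overlaps the WT-labelled arrays. Without that array the difference was -0.24 (limma adjusted p = 0.0211, and 0.0211 to 0.397 over the fits with 1 array left out). The only probe set of Rplp2 had a mean signal of 8.47, where those of Rplp0 and Rplp1 lay at 14.1. How well it reads the transcript was not tested. Rplp1 read 14.12, 14.11, 14.19 and 14.14 against 14.09, 14.02, 14.06 and 14.01, separated by a gap of 0.02, a difference of -0.095 (limma adjusted p = 0.309). Rplp0 read 14.11, 14.12, 14.15 and 14.14 against 14.00, 14.10, 14.12 and 14.11, where KO replicate 1 alone lies below 14.10, a difference of -0.0475 (limma adjusted p = 0.673). Rpl12 read 10.43, 10.48, 10.37 and 10.23 against 9.96, 10.17, 10.44 and 10.60, a difference of -0.085 (limma adjusted p = 0.819) whose sign turned to 0.026 without KO replicate 1.

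Of the proteins around the exit tunnel of the growing chain, 4 of 8 listed genes were tested, Rpl19, Rpl23a, Rpl26 and Rpl4. All 4 lay below 0, as did 57.9% of all tested genes, and this count is not a test. Their median was -0.0975, and none was separated on the probe set that stands for the gene. Of the 13 probe sets of Rpl23a, all lay below 0, from -0.18 to -0.075, and 9 separated the groups. Rpl26 read 11.50, 11.53, 11.59 and 11.60 against 11.54, 11.45, 11.31 and 11.27, with KO replicates 3 and 4 apart from all other arrays. Its difference was -0.16 ± 0.0648 (SE, n = 4; limma adjusted p = 0.245; 0.0482 without KO replicate 1 and up to 0.472 with another array left out). Rpl5, the tested gene of the 5S particle, read 13.47, 13.44, 13.37 and 13.48 against 13.38, 13.45, 13.49 and 13.49. Its difference of 0.0125 ± 0.0475 (SE, n = 4; limma adjusted p = 0.941) turned to -0.011 without WT replicate 3.

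Paralogs of ribosomal proteins, some of them restricted to a tissue, were set beside their partners where those were analysed here. Rpl3l, the striated-muscle form of RPL3, read 6.22, 6.07, 6.23 and 6.07 against 6.33, 6.25, 6.18 and 6.13, and Rpl39l, an RPL39 copy of the testis, 5.56, 5.75, 5.46 and 5.37 against 5.59, 5.41, 5.31 and 5.51. Both lay under the filter on all 8 arrays and were not tested. Rpl10l, an RPL10 copy of the testis, read 7.56, 7.03, 7.15 and 7.21 against 7.03, 7.32, 7.02 and 7.08, near the filter's level and overlapping (limma adjusted p = 0.652). Its partner Rpl10, which joins the large subunit late in its assembly, read 14.17, 14.15, 14.14 and 14.15 against 14.16, 14.15, 14.19 and 14.19, a difference of 0.02 (limma adjusted p = 0.876).

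Rps27l, a p53-induced form of RPS27, read 12.69, 12.58, 12.57 and 12.63 against 12.39, 12.52, 12.44 and 12.53. Its groups were separated, with a difference of -0.15 ± 0.0511 (SE, n = 4; limma adjusted p = 0.187). Rpl7l1 read 12.15, 12.20, 12.14 and 12.20 against 12.20, 12.21, 12.31 and 12.31, a difference of 0.085 (limma adjusted p = 0.416), while Rpl7 itself had -0.17. Rps4l read 8.19, 8.05, 8.10 and 7.96 against 8.44, 7.83, 7.98 and 7.90, a difference of -0.0375 (limma adjusted p = 0.93) against the -0.125 of Rps4x. Rpl22, which is needed for the development of alpha-beta T cells, read 9.07, 9.04, 8.90 and 9.18 against 9.01, 9.0, 9.11 and 9.09, a difference of 0.005 (limma adjusted p = 0.984).

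Ribosomal protein genes have many processed pseudogenes, and a probe set can read near-identical copies, so each gene's value is uncertain to that extent. The probe sets of a gene gave similar differences, but this does not lessen that doubt, because probe sets that share sequence read alike. The 3 probe sets of Rpl41, for example, had identical values on every array. Of the 39 genes with more than 1 probe set, 32 had all of them on the same side of 0, 23 below and 9 above, and 7 had both signs. The range of the difference among a gene's probe sets had a median of 0.0525 and reached 0.26 in Rpl27a. Of the 215 tested probe sets, 53 had all KO-labelled values below all WT-labelled values and 2, both of Rps6, had them above. Over the array these shares were 7.56% and 3.18% of the probe sets tested. Genes with many probe sets weigh heavily here: of the 53, Rpl23a gave 9, Rpl13 8 and Rpl27a 7. In Rpl6, Rpl7, Rps21 and Rps29 every probe set separated the groups. Probe sets of a gene can share sequence and are not replicates. When all probe sets were tested, 0 of 215 passed the limma test (background 1.08%), and the lowest adjusted p was 0.0536. At an unadjusted p under 0.05, 59 were lower and 1 was higher, against 10.4% and 6.33% of the probe sets tested over the array.

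**Figure D3:**
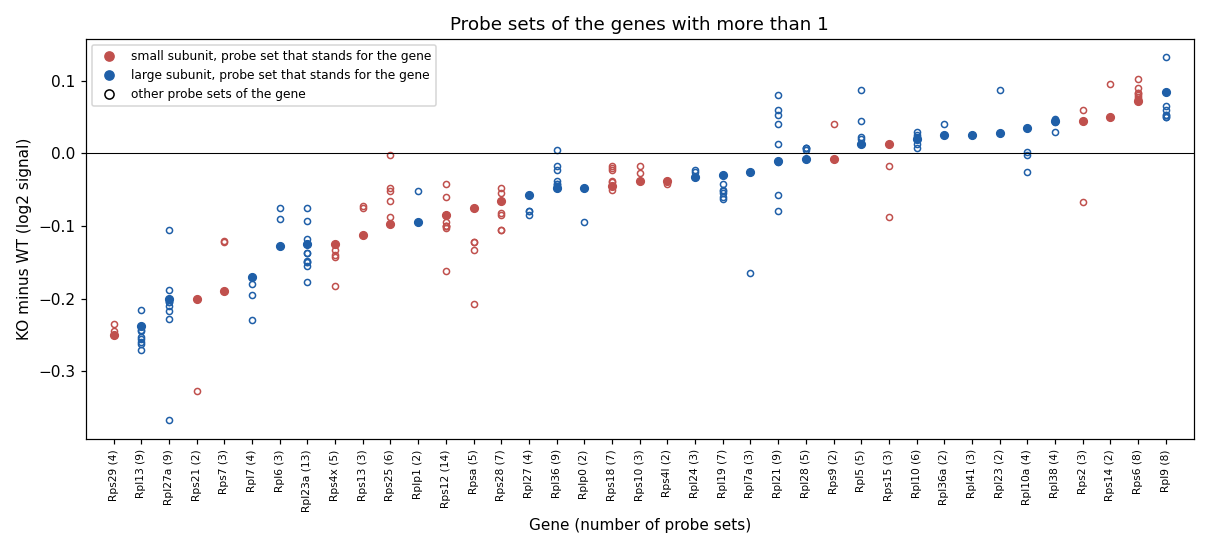
Log2 difference, KO minus WT, of every probe set (points) of the 39 ribosomal protein genes with more than 1 (horizontal axis, number of probe sets in brackets); filled points, the probe set that stands for the gene; red, small subunit; blue, large subunit. Points of a gene lie close together, within 0.0525 at the median, and 32 genes keep to one side of 0.

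The arrays contributed unequally. WT replicate 1 held the highest of the 8 values in 28 of the 59 genes and the lowest in 0, and WT replicate 3 held the lowest in 19. Among the KO-labelled arrays, replicate 4 was the highest in 13 genes and the lowest in 11. In 7 genes, Rpl13, Rpl26, Rpl27a, Rpl29, Rps19, Rps21 and Rpsa, KO replicates 3 and 4 both lay below every other array.

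Expressed as the median deviation from each gene's mean over the 8 arrays, the small subunit stood at 0.07, 0.03, -0.0025 and 0.026 in the WT-labelled and at -0.034, -0.0275, -0.065 and -0.0175 in the KO-labelled arrays. The groups do not overlap, although WT replicate 3 and KO replicate 4 are only 0.015 apart. The large subunit stood at 0.038, 0.0081, -0.024 and 0.034 against -0.033, -0.011, -0.023 and 0.0088, and here the groups overlap. The same measure over all tested genes ran from 0.0038 to 0.015 in the WT-labelled arrays and was -0.06 in KO replicate 1 and -0.0125, 0.0062 and 0.021 in the others. KO replicate 1 was thus the lowest array over all genes, but not for the small subunit, where KO replicate 3 was. Leaving KO replicate 1 out, the small subunit's median was -0.081 and the large subunit's -0.015, beside -0.0125 over all genes. The gap between the subunits changed with the fit. With array weights the small and large medians were -0.096 and -0.024, beside -0.013 over all genes. After another quantile normalization they were -0.067 and -0.043, beside -0.007. Without KO replicate 4 they were -0.07 and -0.048, beside -0.021.

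**Figure D4:**
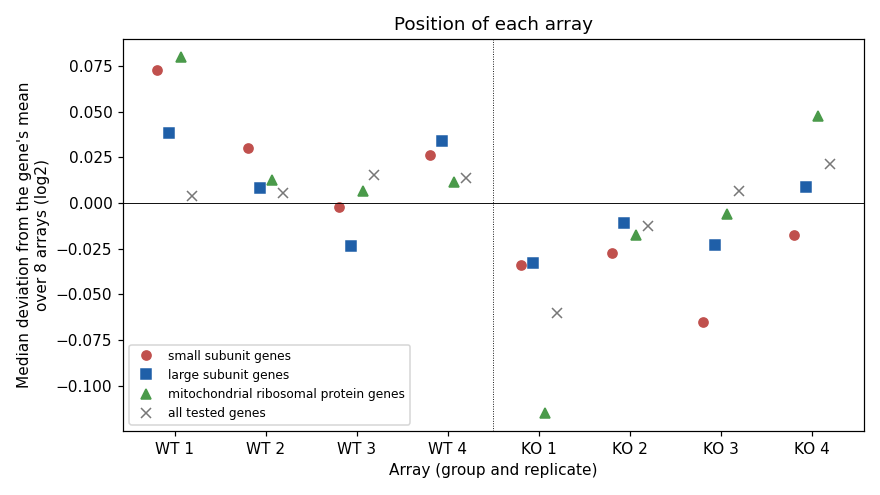
Median log2 deviation from each gene's mean over the 8 arrays (vertical axis) for small subunit genes (red circles), large subunit genes (blue squares), mitochondrial ribosomal protein genes (green triangles) and all tested genes (grey crosses) on each array (horizontal axis). The small subunit lies at -0.0025 or above in the WT-labelled arrays and at -0.0175 or below in the KO-labelled arrays, and KO replicate 1 has the lowest value for all tested genes, -0.06.

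How many genes of the family passed the threshold depended on the fit. Without KO replicate 1, the array that stands farthest from its group over all tested genes, 5 passed, Rpl13, Rpl26, Rplp2, Rps21 and Rps29, all lower, against 2.70% of all tested genes lower and 3.90% higher. With arrays weighted by their agreement, which gave KO replicate 1 the lowest weight, 12 passed, all lower (background 8.13%), and Rpl6, Rpl7, Rpl23a, Rpl27a, Rps4x, Rps7 and Rps20 joined that list. With a prior that follows intensity, 4 passed, Rpl6, Rps21, Rps29 and Rps7, all lower (background 1.70%). Rps29 is in each of these lists. Over the 8 fits that left out 1 array, 44 of the 59 genes kept the sign of their difference, 32 below 0 and 12 above.

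Most of the family lies near the top of the array's signal range. Signals of different probe sets do not rank transcripts, and the position is given because the spread changes with it. The median log2 signal was 13.04, and 28 of the 59 tested genes lay above 13.11, the 99th percentile of tested genes. The highest value on any array was 14.8. Rpl10 and Rpl28 had the brightest probe sets of the family, followed by Rps6 and Rplp0 at the same mean signal, and Rpl28 read 14.17, 14.15, 14.13 and 14.07 against 14.15, 14.15, 14.08 and 14.11, with a difference of -0.0075 (limma adjusted p = 0.964). The 31 genes at 13 or above had a median difference of -0.025 with a median SE of 0.0453, and 18 of them lay below 0. The 19 genes between 11 and 13 had -0.09 with an SE of 0.0511, and 16 lay below 0. The 9 genes under 11 had -0.0375 with an SE of 0.0924, and 6 lay below 0. Across the 59 genes, which share the same 8 arrays, level and difference had a Spearman correlation of 0.303, given as a description. Whether the brightest probe sets respond fully to a change in RNA was not tested.

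**Figure D5:**
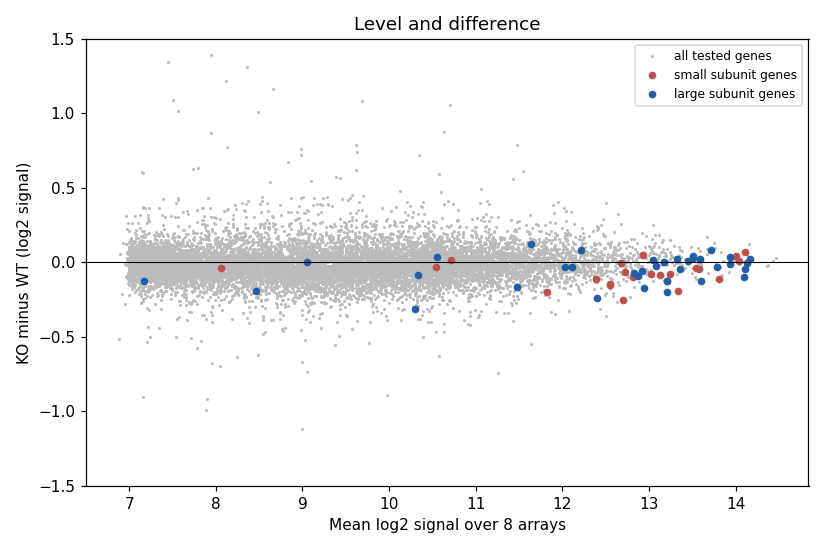
Log2 difference, KO minus WT (vertical axis), against the mean log2 signal over 8 arrays (horizontal axis) for all 11926 tested genes (grey) and the ribosomal protein genes of the small (red) and large (blue) subunit. The family sits at the bright end, 28 genes above 13.11, within -0.315 to 0.12.

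Other genes of the translation machinery were read from lists chosen for this purpose. Fau, which encodes the small subunit protein RPS30, had a difference of -0.11 (limma adjusted p = 0.251). Of the 77 mitochondrial ribosomal protein genes, 0 passed and 52 lay below 0, as did 57.9% of all tested genes. Their median was -0.05, close to that of the cytosolic family. Mrpl43 had the smallest p among them, with a difference of -0.245 (limma adjusted p = 0.0591). In this list KO replicate 1 stood far below the rest, at a median deviation of -0.115. Without that array 2 of the 77 genes passed higher and 2 lower, against 3.90% and 2.70% of all tested genes.

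None of the factors that work with the ribosome passed either. The 11 elongation and termination factors had a median of -0.0175, with the smallest p for Eef1b2, a nucleotide exchange factor of elongation (-0.135, limma adjusted p = 0.246). The 36 initiation factors had a median of -0.0012, with the smallest p for Eif4g3, a scaffold of the cap-binding complex (-0.17, limma adjusted p = 0.108). The 17 other genes whose messenger RNAs carry a TOP tract had a median of -0.015, with Eef1b2 again first. The 21 regulators of TOP translation and mTORC1 had a median of -0.0375, with 16 below 0, where 57.9% of all tested genes were. The smallest p among them was that of Tsc1, an inhibitor of mTORC1 (-0.155, limma adjusted p = 0.105).

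Tsr2, the chaperone that delivers RPS26 to the small subunit, had the smallest p of the 21 chaperones and assembly factors, whose median was 0 to 2 decimals. It read 9.59, 9.58, 9.55 and 9.58 in the WT-labelled arrays and 9.71, 9.84, 9.80 and 9.89 in the KO-labelled arrays, without overlap. The difference was 0.235 ± 0.049 (SE, n = 4; limma adjusted p = 0.0518). Without KO replicate 1, Tsr2, Nap1l1 and Znhit3 passed higher in this list of 21. Nap1l1 was also the 1 of 17 in the list of other TOP messenger RNAs. Larp1, the TOP-binding repressor, was the 1 of 21 that passed higher among the regulators. In that fit 3.90% of all tested genes passed higher. Rps26 itself is among the symbols not analysed here.

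Facts of the whole series that touch these results are few. Arrays correlated at 0.986 to 0.998 over tested genes. In all, 157 genes passed, 77 higher and 80 lower, and 48 higher and 30 lower when each array was centred on its median. The targeted gene went against its label: Bcl6 read 8.61, 8.91, 8.78 and 8.79 in the WT-labelled and 9.08, 9.15, 9.18 and 9.19 in the KO-labelled arrays (limma adjusted p = 0.0303, up to 0.109 with 1 array left out). The place of its probe set in the gene, inside or outside the deleted part, was not analysed here. Its signal therefore cannot serve as a check of the labels, and each direction given is between arrays as labelled. All 10 T cell markers on the array were tested and none passed, the smallest p being that of Thy1 (limma adjusted p = 0.123). Of 12 Tfh and activation markers, Cd200 rose by 0.34 (limma adjusted p = 0.038; up to 0.143 with 1 array left out) and Tox fell by 0.39 (limma adjusted p = 0.0423; up to 0.146 with 1 array left out). Of the B cell, myeloid and erythroid and platelet markers on the array, 3 of 9, 2 of 12 and 2 of 5 passed the filter, and the mean level of each list overlapped between the groups. Of the CD8 and NK cell markers, 6 of 10 were above the filter. The mean level over all 10 was 7.30 to 7.65 in the WT-labelled and 7.15 to 7.26 in the KO-labelled arrays. Over the 6 tested, the median difference was -0.40, with no gene past the threshold. The CD8 genes Cd8a (-0.0425) and Cd8b1 (0.03) lay near 0. The low values were those of Nkg7 (-0.89), Ctsw (-0.52), Prf1 (-0.44) and Eomes (-0.37). The part of this list in the values of the ribosomal protein genes was not tested.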

How the data were processed

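The authors deposited 1 log2 value per probe set and array, rounded to 2 decimals; RMA and Partek are named in the submitters' processing notes, with versions and annotation not given in the sources used here. RMA brings the arrays' distributions close to each other, so each value is relative to the other transcripts of its array. The deposited arrays still differed: the 40th percentile ran from 6.91 in KO replicate 4 to 7.15 in KO replicate 1. Of 35556 probe sets, 21789 had 1 gene symbol in the platform annotation, 1621 had several and 12146 were not listed; 21698 matched the RefSeq gene table and no symbol changed. The probe set with the highest mean stood for a gene. Genes above the 40th percentile in at least 4 of 8 arrays were tested with limma 3.58.1 in R 4.3.3. The fit (lmFit, eBayes, two-sided, Benjamini-Hochberg, threshold 0.05) had no block. Deviations of same-numbered arrays correlated at -0.17 to 0.31, which cannot show whether the numbers pair the arrays. The fit was checked on simulated data. All differences are KO minus WT.

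The members and all lists were chosen with earlier results of these data known. Genes were named by rule: Bcl6, the 5 smallest p, the 6 lowest and 6 highest differences, the 3 highest and 3 lowest levels, genes under the filter, paralogs, the stalk and 5S particle, and from each list the called genes or the one with the smallest p. Other members named for separated groups, low arrays or a call in another fit were chosen after their values were seen, as were the genes called without KO replicate 1. Alternatives covered normalization, filter, prior, array weights, probe set summary, block, thresholds and each array left out.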

Additional observations from a re-analysis of the deposited data

Results flagged for a closer look

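In 4 of 88 groups of 4 arrays checked for the named genes, 1 array stood apart from the other 3 by Dixon's test, which chance gives in about 1 of 20 groups (4.4 of 88). Rps29 on WT replicate 4 read 12.73, against 12.85 to 12.87 on the other WT-labelled arrays. Rps29 on KO replicate 3 read 12.49, against 12.6 to 12.62 on the other KO-labelled arrays. Rplp0, the stalk protein, read 14 on KO replicate 1, against 14.1 to 14.12. Cd200, a membrane glycoprotein among the Tfh and activation markers, read 12.12 on KO replicate 1, against 12.31 on each of the other 3.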

How the results depend on the processing

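The count of all genes past the threshold, 157, was 322 after another quantile normalization, 78 after centring each array on its median, 58 with no filter, 354 with an intensity trend and robust prior, 1980 with array weights, 27 at a threshold of 0.01 and 468 at 0.1. With 1 array left out it ran from 28 to 783, the highest without KO replicate 1. No ribosomal protein gene passed in the main analysis, and all that passed in other settings were lower. After another quantile normalization 2 of 59 passed (Rps29 and Rps7), beside 322 of 11926 genes. With the filter at the 50th percentile 1 of 58 passed (Rps29), beside 229 of 9872. The trend gave 4 of 59 beside 354 of 11926, and array weights 12 of 59 beside 1980 of 11926. A threshold of 0.1 gave 3 of 59 beside 468 of 11926. With 1 array left out 0 to 5 passed, the 5 without KO replicate 1, beside 783 of 11866. The replicate block gave 36 genes, none of the family. Deviations of same-numbered arrays correlated at 0.011, 0.14, -0.17 and 0.31. Each value rests on 1 pair of arrays, so they cannot show whether the numbers pair the arrays. Chosen after seeing the data, the 20 tested genes with 1 probe set had a median of -0.0725, with 13 below 0. Signs turned where differences were near 0: Rpl10 gave -0.0062 after another quantile normalization, and Rpl28 gave 0.0025 after centring and 0.004 as a mean over probe sets. With 1 array left out Rpl12 ran from -0.19 to 0.026, Rpl22 from -0.044 to 0.049, Rpl28 from -0.0275 to 0.0067, Rpl5 from -0.011 to 0.037 and Rps4l from -0.17 to 0.032. The causes were not tested.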
